A study of Drosophila melanogaster with 8 samples.

Results

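The genes described here are those of the cytosolic ribosome and of the factors that run translation on it in the heads of male *Drosophila melanogaster*. They were taken by name, as every gene whose symbol in the array's annotation starts with RpL or RpS, for proteins of the large and the small ribosomal subunit, or with eIF or eEF, for eukaryotic initiation and elongation factors. Mitochondrial ribosomal proteins (mRp) and kinases such as S6k stay outside the rule. It found 53 genes, represented by 136 array features, among 6793 genes with exactly 1 symbol and 27648 features. Of the 53 genes, 23 carry the ribosomal prefixes and 30 the factor prefixes, of which 26 are eIF and 4 eEF genes. RefSeq lists 144 protein-coding fly genes with such symbols, so many subunits are not analysed here, RpS6, RpLP2, eIF4E1, eIF2alpha, eEF1alpha1 and eEF2 among them.

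Each array set treated flies directly against untreated flies of the same day. The treated flies were unmated Oregon-R wild-type males, 3 to 4 days old at the start, which ate food with 8 mg/ml pentylenetetrazole (PTZ, a convulsant that blocks GABA-gated chloride channels) for 7 days and then food with 16 mg/ml gabapentin (GBP, an anticonvulsant) for 3 days. At day 10 their heads were taken straight after gabapentin, and at day 14 after 4 more days on normal food. The controls were males of the same strain and age that ate normal food throughout. Per the labels, heads were pooled from vials that began with 30 flies, and each of the 4 arrays of a day compared a separate treated pool with its control pool; replicates 1 and 2 carried the treated RNA in Cy5 and replicates 3 and 4 in Cy3. For 3 of the 4 day 14 arrays a line of the labels gives ETH, which is not explained there, where the others name gabapentin, so the drug those flies received is open to that extent. There was no group that received PTZ alone or gabapentin alone, so the parts of the 2 drugs cannot be told apart.

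A ribosome joins ribosomal RNAs with many different proteins, and cells keep those proteins in balance because they work in one particle. Initiation factors bring the first tRNA, the messenger RNA and the small subunit together; elongation factors then deliver each aminoacyl-tRNA and move the ribosome along. In flies as in mammals, growth signalling through TOR and stress signalling through phosphorylation of eIF2 are known to tune this machinery, and much of that control acts on proteins and on translation rather than on the amount of mRNA, which is what an array measures. A head mixes neurons, glia, photoreceptors, fat body and muscle, and which of them express each member was not measured. Fewer cells of a type and less RNA per cell thus cannot be told apart.

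The data are log2 ratios of the 2 channels of an array. The labels do not say which dye is the numerator, nor whether swapped arrays were turned round before deposit. The values below read the ratio as Cy5 over Cy3 and turn the Cy3 arrays, so that a positive number means more signal in treated heads; a reading with the signs as deposited is given beside the main results, because the direction is not settled. On the 8 arrays between 6628 and 19719 features had a value, and the array medians ran from -0.83 to 0.29 log2 units. Correlations of deposited values between arrays of 1 day ran from -0.27 to 0.41, and at day 10 replicates 1 and 4, of opposite dye, correlated at 0.35, as high as the pair 1 and 2 of one dye at 0.36. Median ratios also drifted along the order of the table, on day 10 replicate 1 from -1.76 to -0.13 between long stretches of features. Head markers had values for photoreceptors (trp, Arr1 and inaC on all 8 arrays) and neurons (nSyb and Gad1 on 7), and none of the marker genes tested passed the threshold on either day. The photoreceptor genes trp, Arr1 and inaC had means of -0.12, -0.21 and 0.01 at day 10 and -0.41, -0.34 and -0.28 at day 14. The neuronal genes nSyb and Gad1 had -0.01 and 0.09 at day 10 and -0.15 and 0.03 at day 14. The 4 glial genes tested at day 10 had means from -0.49 to -0.21, 4 fat body genes from -1.24 (Lsp2) to 0.23 (Yp2) and 3 muscle genes from -0.32 to -0.09. Acp36DE, listed as a marker of testis and accessory gland, had values on the 4 day 10 arrays, with a mean of -0.87. At day 14, 5 fat body genes lay between -0.35 and 0.27 and 3 muscle genes between -0.31 and 0.23. The part of cell composition in the results was not tested.

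No ribosomal protein or translation factor gene passed the test on either day. Of the 53 genes, 44 had values on at least 3 of the 4 arrays at day 10 and 36 at day 14, with 33 on both days and 6 on neither. In limma's moderated test, fitted to all 8 arrays and adjusted by Benjamini-Hochberg over all genes and features, 0 of 44 members were called at day 10, where 0 of 11312 rows were called (0%), and 0 of 36 at day 14, where 0 of 6142 were called (0%). The difference between the days was called for 0 of 33 members, beside 0 of 5187 rows (0%). The members' adjusted p ran from 0.772 to 0.986 at day 10, was 1 for each at day 14 and ran from 0.936 to 0.998 for the difference. At an unadjusted p under 0.05 the count was 2 of 44 members at day 10, RpS10a and RpL23, both with ratios below 0; over all rows 5.18% were past that p in that direction and 0.0972% in the other. At day 14 it was 0 of 36, beside 0.602% and 0.521% of all rows, and 0 of 33 for the difference, beside 0.0386% lower and 2.12% higher. The median standard error of a member's mean was 0.281 at day 10 and 0.258 at day 14. Simulated data had the same blanks, 1 spread per gene averaged over the days, and no array offsets or drift. In them, the day 10 test called 22% of genes shifted by 1 log2 unit and 70% of those shifted by 2, with 0 false calls. The day 14 test called 54% and 96%, with 10 false calls. Most changes of 1 unit were thus not called at day 10 in the simulated data, and recovery in the real data was not measured.

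As a group, the ribosomal protein genes had day 10 ratios below 0, as did most of the array. All 19 tested ribosomal protein genes had a mean below 0 at day 10, but so did 86.1% of all rows, whose median was -0.25. The ribosomal protein median was -0.37, which is 0.12 below that of all rows, and 14 of the 19 lay below it. At day 14 all rows were centred on -0.001 and 50.2% were below 0; the ribosomal protein median was -0.08 and 12 of 17 were below the median of all rows. On single arrays the distance from the array median lay between -0.19 and 0.10 at day 10, and between -0.25 and 0.05 at day 14. With signs as deposited, the ribosomal protein median stood 0.02 above that of all rows at day 10 and 0.21 above it at day 14, so the side on which these genes lie depends on the reading of the ratio.

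**Figure D1:**
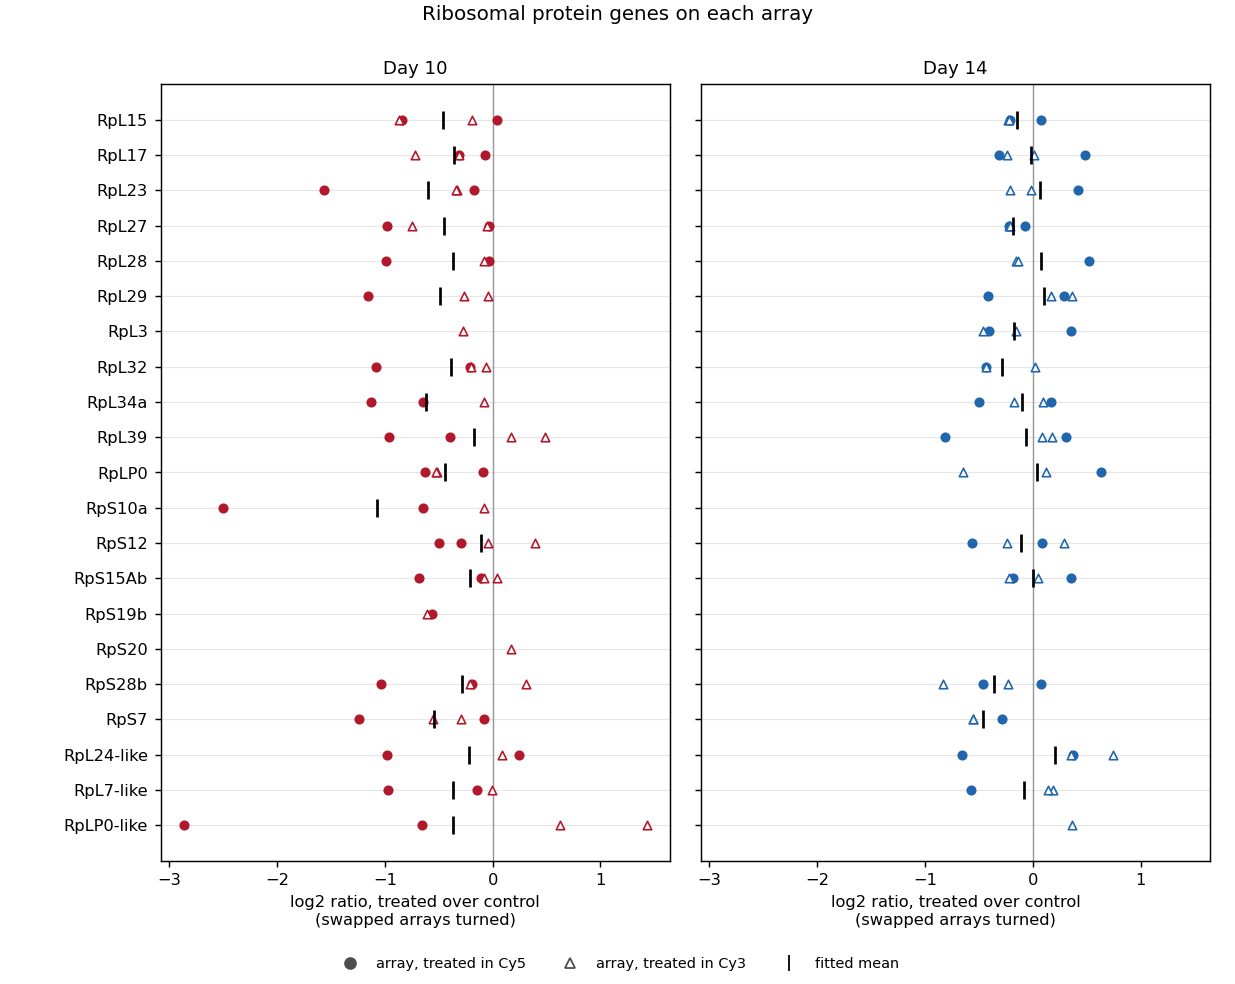
Log2 ratio of treated over control for ribosomal protein genes with any value, 1 small-subunit gene left out, day 10 on the left and day 14 on the right; filled circles are arrays with treated RNA in Cy5, open triangles arrays with treated RNA in Cy3, with swapped arrays turned, and black bars are fitted means. Replicate 1 of day 10 gives the left-most point for most genes, and at day 14 the points of most genes lie on both sides of 0.

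The large subunit supplied 12 genes, of which 10 were tested at day 10. RpLP0 encodes the base of the ribosome's stalk, the arm that recruits elongation factors. Its ratios at day 10 were -0.63, -0.09, -0.52 and -0.52 in replicates 1 to 4, and at day 14 they were 0.63, -0.65 and 0.12 in replicates 1, 3 and 4. The 4 day 10 arrays lay below 0, while the day 14 arrays lay on both sides. The means were -0.44 ± 0.27 at day 10 and 0.04 ± 0.30 at day 14 (SE from the limma fit, n = 4 and 3 arrays; adjusted p = 0.772 and 1). RpLP1, a partner protein in the stalk, was spotted but had no value on any array.

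RpL23 encodes a protein of the large subunit's face that meets the small subunit, and it was the large-subunit gene of smallest unadjusted p at day 10. Its day 10 ratios were -1.57, -0.17, -0.33 and -0.34, and its day 14 ratios were 0.42, -0.02 and -0.21 in replicates 1, 3 and 4. One array, replicate 1 of day 10, stood far below the rest, and that array's own median was -0.85 over genes and unnamed features. The mean was -0.60 ± 0.28 at day 10 (unadjusted p = 0.048, adjusted p = 0.772 in limma), and -0.28 without replicate 1. At day 14 the mean was 0.06 ± 0.30, and the difference between the days was 0.66 ± 0.40 (adjusted p = 0.936), against a median difference of 0.27 over all rows. With arrays centred on their medians the RpL23 difference was 0.22.

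RpL34a, another protein of the large subunit, had a day 10 mean of -0.62 ± 0.30 (adjusted p = 0.772, limma, n = 3). Its ratios were -1.13, -0.65 and -0.08 in replicates 1, 2 and 4 of day 10, and 0.17, -0.50, -0.17 and 0.10 at day 14. The day 10 values were all below 0 and spread over more than 1 log2 unit. Of the 33 members tested on both days, it alone lay below the array's median on every array that measured it, beside 1.75% of all rows. Centred by position, 0 of the 33 were below 0 throughout, beside 1.21% of all rows. RpL34a then had 0.07 on day 10 replicate 1. Its day 14 mean as turned was -0.10 ± 0.25. The 2 spots of its clone differed by up to 1.04 log2 units on an array, which was a wide gap for these genes.

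RpL15, a core protein of the large subunit, had ratios of -0.84, 0.04, -0.87 and -0.19 at day 10 and 0.08, -0.21, -0.23 and -0.22 at day 14. At day 10 the arrays of each dye orientation held one value near 0 and one near -0.85, so neither dye group separated. The means were -0.46 ± 0.25 and -0.15 ± 0.25 (adjusted p = 0.772 and 1, limma). RpL27 had ratios below 0 on every array, -0.98, -0.03, -0.75 and -0.06 at day 10 and -0.08, -0.22, -0.22 and -0.22 at day 14. Its 4 day 14 arrays spanned 0.14 log2 units, a narrow range beside that of its day 10 arrays. Its means were -0.45 ± 0.25 and -0.18 ± 0.25. Relative to the array medians it was above on replicate 2 of both days, by 0.23 and 0.26. Features beside it in the table had medians of -2.29, -0.77, -0.095 and 0.605 at day 10, from 2 to 18 values an array. After centring by position, which on replicate 3 used long stretches alone, its day 10 mean was 0.11.

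RpL29 lay among the lower genes at day 10 and among the higher ones at day 14. Its ratios were -1.16, -0.27 and -0.04 in replicates 1, 3 and 4 of day 10, and 0.29, -0.41, 0.17 and 0.37 at day 14. Relative to the array medians, all 3 day 10 values were below and all 4 day 14 values were above, by 0.01 to 0.18. Of all rows, 6.89% were below throughout at day 10 and 10.8% above throughout at day 14. Centred by position, the day 10 values of RpL29 stayed below 0. Its day 14 values were then -0.08, 0.06, -0.06 and 0.08. The mean was -0.49 ± 0.31 at day 10 and 0.10 ± 0.26 at day 14, and the difference of 0.59 ± 0.40 had an adjusted p of 0.936 in limma.

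RpL32, formerly rp49, is widely used in fly work as a loading reference for quantitative PCR. It was spotted as 20 features, of which 4 had any value. Its ratios were -1.08, -0.21, -0.20 and -0.06 at day 10 and -0.44, -0.43 and 0.02 in replicates 2 to 4 of day 14. Replicate 1 stood apart at day 10, and the day 14 values lay on both sides of 0. At day 10, replicates 1 and 3 were measured by a different clone from replicates 2 and 4. Centred by position, the replicate 1 value was 0.08. On day 14 replicate 4 the clones gave -0.23 and 0.27. The means were -0.39 ± 0.26 and -0.28 ± 0.29 (adjusted p = 0.772 and 1, limma), which are 0.14 and 0.28 below the medians of all rows. Among the remaining large-subunit genes, RpL17 and RpL39 belong to the wall of the exit tunnel through which the new protein leaves; their day 10 means were -0.35 and -0.18 and their day 14 means -0.02 and -0.06. RpL28 had -0.37 and 0.07. RpL3, which lies near the catalytic centre, was measured on 1 array at day 10 and had -0.17 ± 0.26 at day 14. Over the subunit, 9 of 10 genes lay below the median of all rows at day 10 and 7 of 11 at day 14, and with signs as deposited 3 of 10 and 2 of 11 did.

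The small subunit supplied 8 genes, 6 tested at day 10 and 4 at day 14. RpS7 encodes a protein of the small subunit's body, and was with RpL27 and the factor eIF3b one of 3 genes of the 33 tested on both days whose ratios were below 0 on every measured array, beside 2.33% of all rows. RpS7 and eIF3b had no value on day 14 replicate 1, and eIF3b none on day 10 replicate 4, arrays with medians of 0.28 and 0.12. The RpS7 values were -1.24, -0.08, -0.56 and -0.30 at day 10 and -0.28, -0.56 and -0.56 in replicates 2 to 4 of day 14. Relative to the array medians it was above on replicate 2 of both days, by 0.18 and 0.19, and below on the other 5 arrays. The means were -0.54 ± 0.26 and -0.47 ± 0.29 (adjusted p = 0.772 and 1, limma). Without replicate 1 the day 10 mean was -0.31. With signs as deposited, its day 14 mean was 0.28.

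RpS10a is one of 2 fly genes for the small-subunit protein RpS10, and it had the lowest mean of all members at day 10. It was measured on 3 arrays of day 10, at -2.50, -0.65 and -0.08 in replicates 1, 2 and 4, and on none of day 14. The 3 values spread over more than 2 log2 units, and those with treated RNA in Cy5 were the lower ones. The mean was -1.07 ± 0.42 (unadjusted p = 0.024, adjusted p = 0.772, limma). Its paired spots differed by no more than 0.248, so the low value of replicate 1 was in both spots. Features next to it in the table had a median of -0.77 on that array, against -2.50 for the gene, and its mean was -0.79 after centring by position. With values on 3 arrays, it could not be tested with any of them left out.

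RpS28b encodes a small protein near the site where mRNA leaves the small subunit. Its ratios were -1.03, -0.19, -0.21 and 0.31 at day 10 and 0.08, -0.46, -0.83 and -0.23 at day 14, so both days had arrays on either side of 0. It had means of -0.28 ± 0.27 and -0.36 ± 0.26 (adjusted p = 0.772 and 1, limma). RpS12, a protein known in flies for its role in cell competition, had means of -0.11 and -0.11, and RpS15Ab had -0.21 and -0.002. RpS19b and RpS20 had too few values to be tested on either day. Of the small-subunit genes 3 of 6 lay below the median of all rows at day 10 and 4 of 4 at day 14; with signs as deposited it was 3 of 6 and 1 of 4.

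The name rule also takes 3 genes called "-like", whose yeast counterparts work in assembly of the large subunit. RpLP0-like had the widest spread of all members with 4 values, with -2.87, -0.66, 0.63 and 1.43 at day 10. The Cy5 arrays were negative and the Cy3 arrays positive after turning, which means that the deposited values were negative on all 4 arrays. The mean was -0.36 ± 0.51 turned and -1.40 with signs as deposited. Features beside it in the table had medians of the same signs on these arrays, -1.64, -0.31, 0.24 and 0.44. Centred by position, its values were -1.10, -0.31, 0.32 and 0.85 and its mean was -0.06. RpL24-like had -0.98, 0.25 and 0.08 in replicates 1, 2 and 4 of day 10 and 0.38, -0.66, 0.74 and 0.36 at day 14. Its day 14 mean of 0.20 ± 0.27 was the highest among the ribosomal prefixes (adjusted p = 1, limma), and with signs as deposited it was -0.35. Without replicate 3 it was 0.03 and without replicate 2 it was 0.49. RpL7-like had means of -0.37 and -0.08. Without these 3 genes the ribosomal protein median stood 0.16 below that of all rows at day 10 and 0.10 below at day 14.

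**Figure D2:**
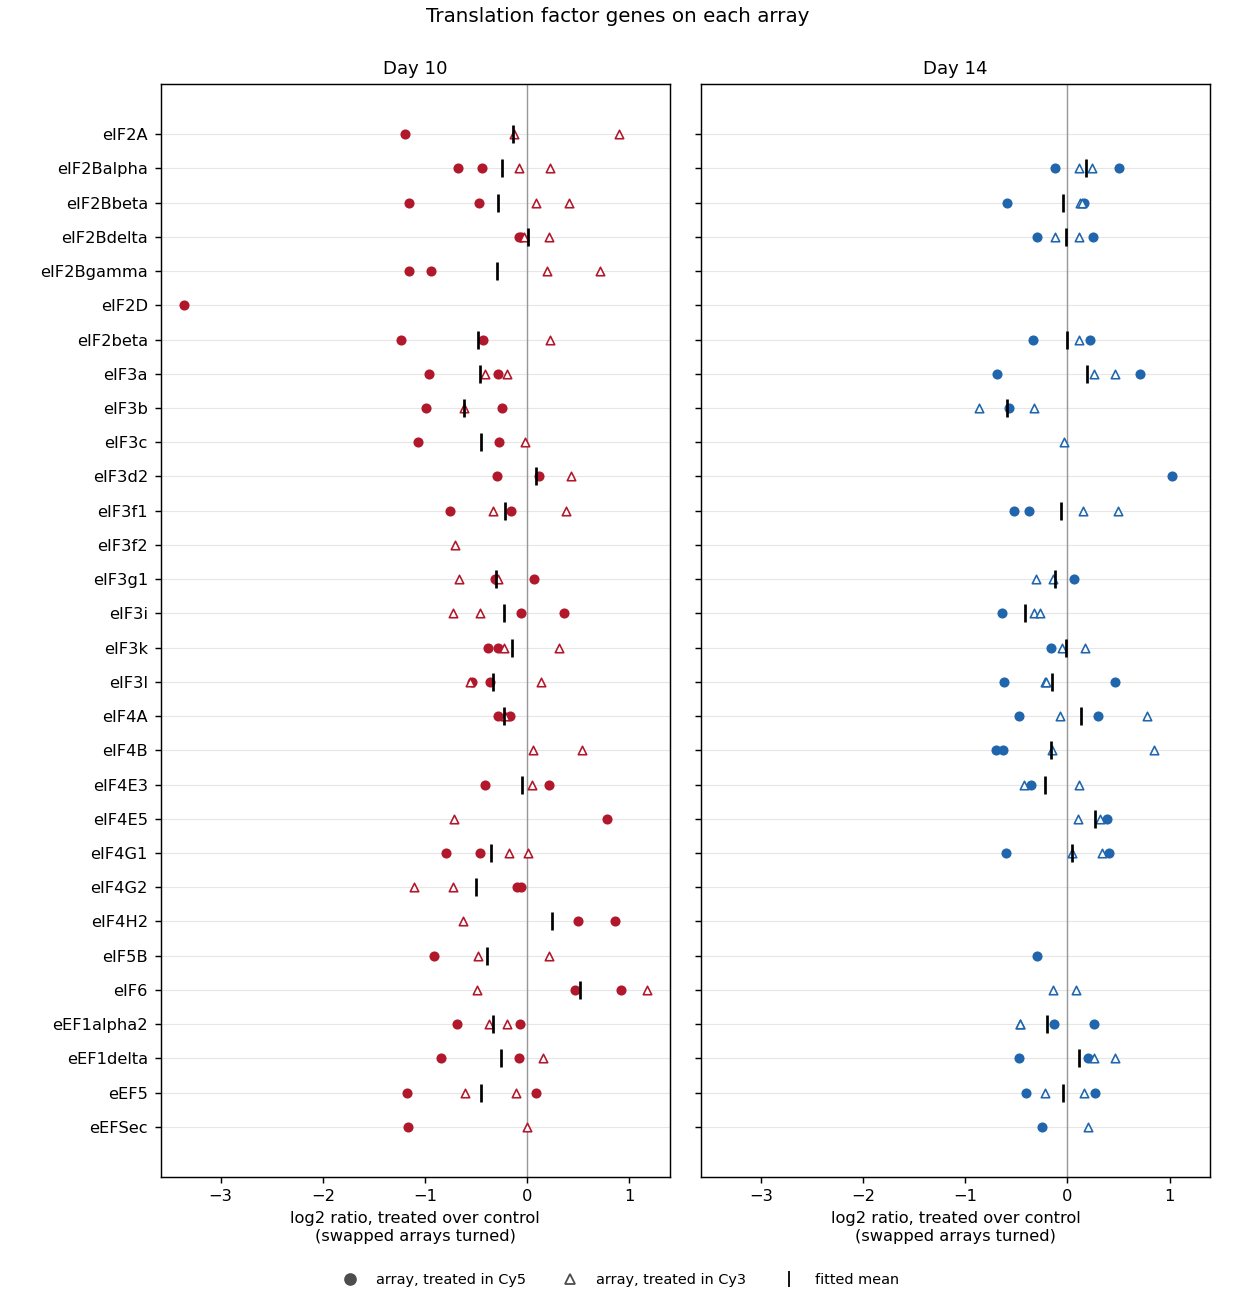
Log2 ratio of treated over control for each translation factor gene with any value, initiation factors above and elongation factors below, day 10 on the left and day 14 on the right; symbols mark the dye of the treated RNA, swapped arrays are turned, and black bars are fitted means. At day 10, eIF6 and eIF4H2 are the genes with fitted means above 0.2, and eIF3b has the lowest fitted mean on both days.

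Translation factors lay near the middle of the array on both days. The median of the 25 tested at day 10 was -0.28, 0.03 below that of all rows, and 14 of 25 lay below it. At day 14 the median of 19 was -0.04, also 0.04 below, with 13 of 19 below. Left to the deposited signs, the factor median stood 0.115 above that of all rows at day 10 and 0.108 above at day 14. Centred by position, it stood 0.05 above at day 10, with 9 of 25 below. At day 14 it then stood 0.02 below, with 12 of 19 below. Which of the lists lay farther from all rows at day 10 depended on the setting: the distances were 0.12 below for ribosomal proteins and 0.03 below for factors as turned, 0.02 above and 0.115 above with signs as deposited, and -0.099 and -0.152 without day 10 replicate 1.

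Initiation begins with eIF2, which carries the initiator tRNA, and with eIF2B, the exchange factor that reloads it with GTP and on which stress signalling acts. The beta subunit of eIF2 had ratios of -1.24, -0.44 and 0.23 in replicates 1, 2 and 4 of day 10, and 0.22, -0.34 and 0.12 in the same replicates of day 14. The 3 arrays of each day lay on both sides of 0. Its means were -0.48 ± 0.33 and -0.001 ± 0.30 (adjusted p = 0.772 and 1, limma). Of the eIF2B subunits, eIF2Bdelta varied least, with values between -0.30 and 0.25 over the 8 arrays and means of 0.01 and -0.01. The alpha subunit had means of -0.25 ± 0.25 and 0.18 ± 0.25, the beta subunit -0.28 and -0.04, and the gamma subunit -0.30 at day 10 alone. eIF2Balpha was above the array median on each day 14 array. eIF2A and eIF2D, factors that can deliver initiator tRNA by other routes, had 3 values and 1 value at day 10 and none at day 14.

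eIF3 is the large scaffold that holds the small subunit ready for mRNA, and 10 of its genes were on the array. eIF3b, a core subunit, had -0.99, -0.25 and -0.62 in replicates 1 to 3 of day 10 and -0.57, -0.86 and -0.33 in replicates 2 to 4 of day 14. All 6 values were below 0, and the 2 days covered about the same range. The means were -0.62 ± 0.30 and -0.59 ± 0.29 (unadjusted p = 0.054 and 0.051, adjusted p = 0.772 and 1, limma). Features beside it in the table had a mean of -1.20 on the same day 10 arrays, from 4 to 8 values an array. After centring by position the day 10 mean was 0.31. On replicates 2 to 4 of day 14 those features had 0, 0 and 2 values. Centring on short stretches of the table needed 6 values, its own included, so it was not made there. The day 14 mean of -0.56 after centring by position thus rests on long stretches alone. With signs as deposited, eIF3b had a day 14 mean of 0.21.

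eIF3a, the largest subunit of the scaffold, gave the member of smallest unadjusted p for the difference between the days. Its ratios were -0.97, -0.29, -0.41 and -0.19 at day 10 and 0.71, -0.69, 0.26 and 0.47 at day 14. All 4 day 10 arrays were below 0, and at day 14 replicate 2 alone was. The means were -0.47 ± 0.27 and 0.19 ± 0.26, and the difference was 0.66 ± 0.37 (unadjusted p = 0.083, adjusted p = 0.936, limma). Leaving out 1 array moved the day 14 mean between 0.02 (without replicate 1) and 0.48 (without replicate 2), and the day 10 mean was -0.30 without replicate 1. With signs as deposited the difference was -0.02.

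eIF3i, a subunit at the edge of the scaffold, had a lower mean at day 14 than at day 10. Its ratios were -0.06, 0.36, -0.72 and -0.47 at day 10 and -0.64, -0.33 and -0.27 in replicates 2 to 4 of day 14. Its day 10 values divided by dye, the Cy5 arrays above the Cy3 arrays. So did the features beside it in the table, with medians of 0.08, 0.02, -0.70 and -0.53. Centred by position, its day 10 mean was 0.06. Its means were -0.22 ± 0.26 and -0.41 ± 0.29, and its difference of -0.19 had an adjusted p of 0.938 in limma. The other eIF3 genes with tests on both days, eIF3f1, eIF3g1, eIF3k and eIF3l, had day 10 means between -0.33 and -0.15 and day 14 means between -0.15 and -0.02. eIF3c had a day 10 mean of -0.45, and eIF3d2 of 0.09 ± 0.31 from values of 0.12, -0.29 and 0.43. eIF3f2 was measured on 1 array. Over the complex, 5 of 9 genes at day 10 and 6 of 7 at day 14 lay below the median of all rows, against 1 of 9 and 2 of 7 with signs as deposited. Centred by position, 1 of 9 and 4 of 7 did.

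The eIF4 group binds the cap of the mRNA and unwinds its leader. eIF4A, the helicase, had -0.17, -0.29 and -0.22 in replicates 1, 2 and 4 of day 10, a close set, and 0.30, -0.48, -0.07 and 0.78 at day 14. Its means were -0.23 ± 0.30 and 0.13 ± 0.26 (adjusted p = 0.797 and 1, limma). eIF4G1, the scaffold that links the cap-binding protein to the helicase, was measured by 2 clones on all 8 arrays and had means of -0.36 ± 0.26 and 0.05 ± 0.25. On day 14 replicate 1 its clones gave 0.80 and 0.01. eIF4G2, a related scaffold, had -0.06, -0.10, -1.11 and -0.72 at day 10. Its 2 Cy3 arrays were lower than its 2 Cy5 arrays, and its mean was -0.50 ± 0.28 turned (adjusted p = 0.772, limma) and 0.42 with signs as deposited. Features beside it in the table divided by dye as well, with medians of 0.34, 0.04, -0.42 and -0.47. Its mean after centring by position was -0.34.

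eIF4E3 and eIF4E5 are further copies of the cap-binding protein. eIF4E3 had means of -0.05 and -0.22. eIF4E5 had 0.39, 0.10 and 0.32 in replicates 1, 3 and 4 of day 14, the only member of 36 whose ratios were above 0 on every measured array of that day, beside 4.35% of all rows. It had no value on replicate 2, whose array median was -0.48. Relative to the array medians it had 0.11, 0.05 and 0.13. Its mean of 0.27 ± 0.31 was below its standard error (adjusted p = 1, limma). eIF4B, which helps the helicase, had -0.16 at day 14, and eIF4H2 had 0.24 ± 0.35 at day 10 from values of 0.86, 0.50 and -0.63. Features beside eIF4H2 in the table had medians of 0.46, 0.27 and -0.57 on the same arrays. Centred by position, the eIF4H2 mean was 0.16.

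eIF6 keeps a free large subunit from joining too early, and it had the highest mean of all members at day 10. Its ratios were 0.91, 0.47, 1.17 and -0.49 at day 10, and it had values of 0.09 and -0.14 in replicates 3 and 4 of day 14, too few for a test. Replicates 1 to 3 were above 0 and replicate 4 below. The mean was 0.52 ± 0.29 (unadjusted p = 0.100, adjusted p = 0.772, limma). Without replicate 4 it was 0.85, and without replicate 3 it was 0.30. Features beside it in the table averaged 0.25 at day 10 and had the same sign as eIF6 on each array of that day, and the mean after centring by position was 0.30. eIF5B, which joins the subunits at the end of initiation, had -0.40 ± 0.33.

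Elongation was represented by 4 genes. eEF1alpha2, a form of the factor that delivers aminoacyl-tRNA, had -0.68, -0.07, -0.38 and -0.20 at day 10 and 0.26, -0.13, -0.46 and -0.47 at day 14. All day 10 values were below 0, and the day 14 values were not of one sign. The means were -0.33 ± 0.25 and -0.20 ± 0.25 (adjusted p = 0.772 and 1, limma). The nucleotide exchange subunit eEF1delta had -0.26 ± 0.31 and 0.12 ± 0.26. eEF5, the fly eIF5A, which helps the ribosome through stretches of proline, had -0.45 ± 0.27 and -0.05 ± 0.26. eEFSec, the factor for selenocysteine, had 2 values on each day and was not tested.

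Array by array, the list medians lay on both sides of the array medians. The ribosomal protein median minus the array median was -0.13, 0.10, -0.19 and -0.18 in replicates 1 to 4 of day 10 and 0.04, 0.05, -0.25 and -0.16 at day 14. It was below the array median on all 4 arrays with treated RNA in Cy3 and on 1 of the 4 with treated RNA in Cy5, so with signs as deposited it was above the array median on 7 of 8 arrays. The part of the dyes in this was not tested. The factor median minus the array median was 0.16, -0.0003, -0.25 and -0.03 at day 10 and -0.02, 0.04, -0.12 and -0.03 at day 14. The ribosomal protein median minus the factor median was -0.30, 0.10, 0.06 and -0.15 at day 10 and 0.07, 0.02, -0.13 and -0.13 at day 14, below 0 on 2 of 4 arrays each day, so no order of the lists held across arrays. Both lists and the 48 mitochondrial ribosomal protein genes, which make a separate ribosome and served for comparison, overlapped in their ranges. The mitochondrial genes' median stood 0.06 below that of all rows at day 10 and 0.07 above at day 14.

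**Figure D3:**
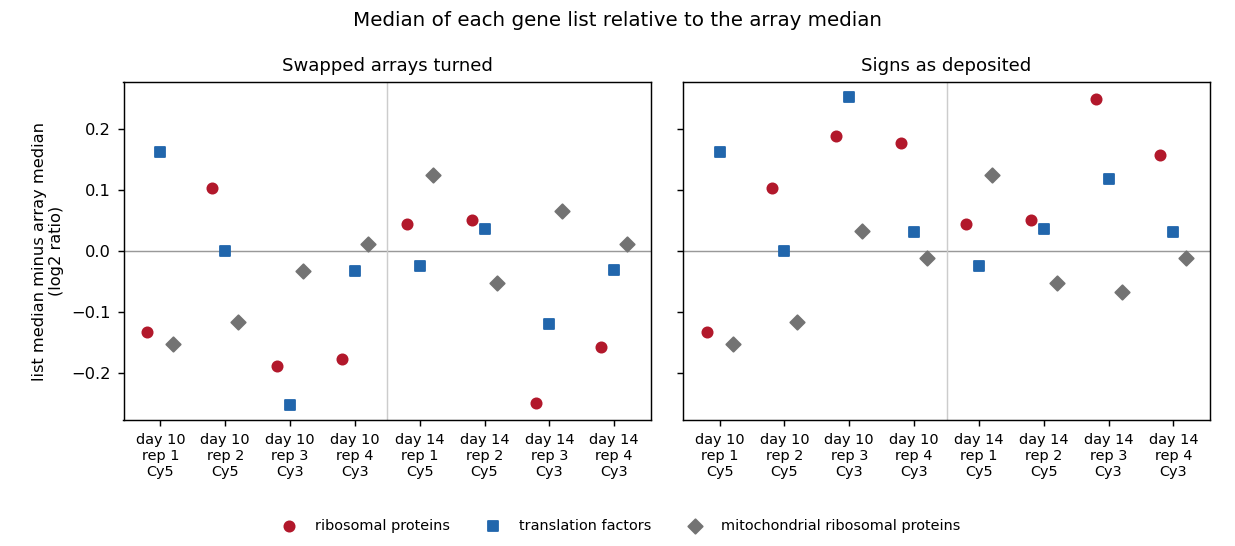
Median log2 ratio of ribosomal proteins (red circles), translation factors (blue squares) and mitochondrial ribosomal proteins (grey diamonds), each minus the median of the array, for the 8 arrays, with swapped arrays turned on the left and signs as deposited on the right. The ribosomal protein points lie between -0.25 and 0.10 on the left, and on the right 7 of the 8 lie above 0.

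How many genes kept one sign depended on the medians of the arrays. At day 10, 11 of 19 ribosomal protein genes and 6 of 25 factors had ratios below 0 on every array that measured them, beside 16% of all rows. After each array's median was subtracted, the counts were 3 of 19 (RpL29, RpL34a and RpS10a) and 2 of 25 (eIF3a and eIF3c), beside 6.89% of all rows. Centred by position, they were 2 of 19 and 4 of 25, beside 8.73%. At day 14, 2 of 17 ribosomal protein genes and 2 of 19 factors were below 0 throughout, beside 7.13%. Of the 11 genes, 8 were thus not below the middle of every array, and the counts after centring rest on few genes.

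Between the days, members followed the array as well. The ratios of all rows were 0.27 higher at day 14 than at day 10 in the median. For ribosomal proteins the median difference was 0.30 over 16 genes and for factors 0.19 over 17. Large-subunit genes had differences between 0.11 and 0.66, all 10 above 0, with 2 of 10 below the median of all rows; the 4 small-subunit genes had differences between -0.08 and 0.20, each below it. With signs as deposited this order turned: the median difference was 0.28 over the large subunit and 0.34 over the small, and 4 of 10 and 1 of 4 lay below the median of all rows. Blanks also entered: RpL23, RpL28 and RpLP0 had no value on day 14 replicate 2 (array median -0.48), and RpL32 and RpS7 none on replicate 1 (0.28). With arrays centred, large-subunit differences ran from -0.17 to 0.31, with 4 of 10 below 0. Those of the small subunit then ran from -0.36 to -0.07. The lowest differences among all members were those of eIF3i at -0.19, eIF4E3 at -0.17 and RpS28b at -0.08. No difference between the subunits was tested, and no single difference passed the threshold.

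**Figure D4:**
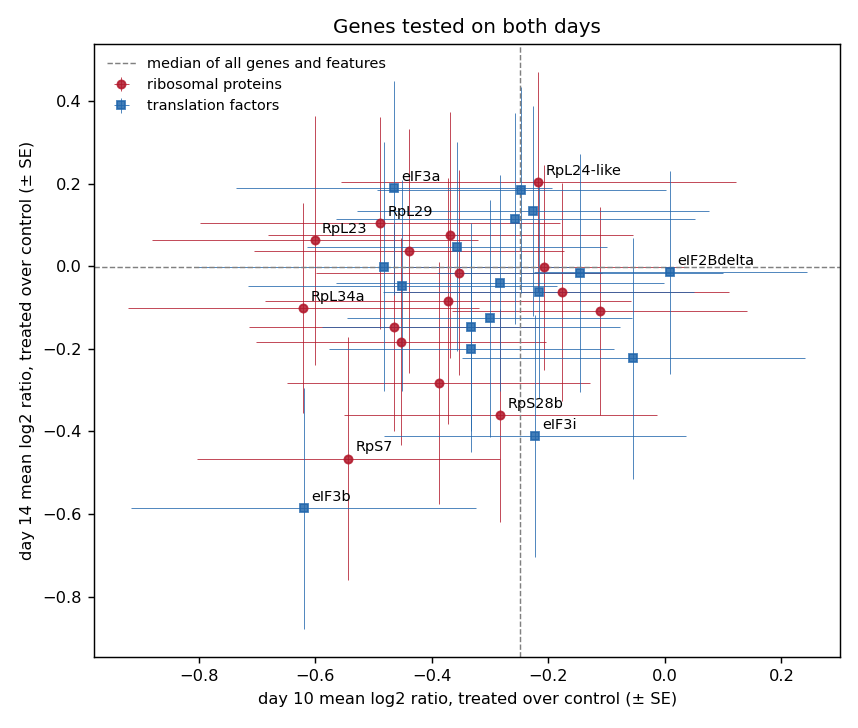
Day 14 mean against day 10 mean, both as log2 ratio of treated over control with standard errors, for the 33 genes tested on both days; ribosomal proteins are red circles, translation factors blue squares, and dashed lines mark the medians of all genes and features. RpS7 and eIF3b lie at the lower left, and the error bars of most genes cross both dashed lines.

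Genes that work beside this machinery under other symbols were also read, and none passed the threshold. Rack1, a scaffold protein bound to the small subunit, had a day 10 mean of -0.50 and a day 14 mean of -0.32. S6k, the kinase that phosphorylates RpS6 downstream of TOR, had -0.30 and -0.01. Of 7 translation genes under other names (Rack1, the poly(A)-binding protein pAbp and eRF3 among them), 5 of 7 lay below the median of all rows at day 10 and 4 of 5 at day 14, against 1 of 7 and 0 of 5 with signs as deposited. Of the aminoacyl-tRNA synthetases, 1 of 6 lay below it at day 10, with a list median of 0.01, and with signs as deposited 3 of 6 did. Ribosome assembly genes were 13 of 25 below at day 10 and 2 of 12 at day 14, where their median was 0.13. At day 14, vito, Nopp140, pes and Ns2 were above 0 on every measured array, 4 of 12 beside 4.35% of all rows. Of these, vito, Nopp140 and pes had no value on replicate 2, whose array median was -0.48. Relative to the array medians, Nopp140, Rrp4, Rrp46, pit and vito were above on every measured array, 5 of 12 beside 10.8%. Centred by position, pes and pit were above 0 on every measured array, 2 of 12 beside 10.3%. With signs as deposited, 10 of 25 and 5 of 12 lay below the median of all rows and the day 14 median of the list was -0.06. Genes of growth signalling upstream of translation were 8 of 12 below at day 10 and 3 of 5 at day 14, and 6 of 12 and 2 of 5 with signs as deposited.

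Repeat spots show how far spots of the same array differed. Such spots shared the RNA and dyes of the array, so differences between arrays do not enter these values. Neighbouring features also shared their place in the table, along which the ratios drifted. Each clone was spotted as 2 neighbouring features, and over the 59 member pairs with both values the median absolute difference within an array was 0.14 log2 units, against 0.17 over all pairs. Where a gene had 2 measured clones, which was so for 7 members and 34 gene and array combinations, the clones differed by a median of 0.23 and by at most 0.84, for eEF1alpha2 on day 10 replicate 3. The median fitted mean of all tested members was -0.33 at day 10 and -0.05 at day 14. Signal shared between close copies, such as RpS10a, RpS15Ab or the eIF4E genes and their relatives, cannot be told apart on cDNA spots and these genes are uncertain to that degree.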

How the data were processed

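Per the labels' protocols, RNA from pooled heads was turned into dye-labelled cRNA and put on spotted cDNA arrays. The authors quantified these in GenePix Pro 6.0 and normalized per array in Acuity 4.0, leaving out weak, saturated or irregular spots. The deposited table holds log2 ratios between the channels, with base 2 inferred from the extreme values, and the sources used here do not give the numerator dye or whether swapped arrays were turned. Arrays with treated RNA in Cy3 were turned here. Genes are means of the features with exactly 1 symbol in GEO's platform annotation (15116 features; 14894 matched RefSeq by gene identifier, the rest kept the annotation's symbol); 12430 features with no symbol and 102 with several were tested under their own numbers.

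With limma 3.58.1 in R 4.3.3, a mean for each day was fitted to all 8 arrays, requiring 3 measured arrays per day for a row, with Benjamini-Hochberg adjustment over all rows and a threshold of 0.05. A first version fitted the rows of both days together. After its counts were seen, each comparison was fitted on its own rows, to follow an earlier processing of these data; both versions called 0 members. This fit was also tested on simulated data (independent noise, no array offsets). Signal over background was not available in the values used, and the number of arrays limits the precision.

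The genes and lists were chosen with earlier results of these data known. The 5 ribosomal proteins and 3 factors of smallest unadjusted p in each direction a day, 3 members a direction for the day difference and a fixed list of genes were named, and the other members were added to account for all of them. Alternatives kept the deposited signs, centred arrays or positions, changed the filter, the dye term, the replicate block, the variance model or the weights, took each dye or day alone, or left out each array. Same-numbered arrays of the 2 days were not taken as pairs, since their deviations did not all correlate. The values of 1 small-subunit gene are not reported here, though the list counts and medians include it. No sequence is shown.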

Additional observations from a re-analysis of the deposited data

Results flagged for a closer look

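Among 24 groups of 4 arrays (a named gene on a day) and 4 groups of list medians, 4 had 1 array farther from the rest than Dixon's 95% limit; chance gives about 1 in 20 such groups. RpL23 at day 10 had -1.565 in replicate 1, against -0.17 to -0.34 in replicates 2 to 4. RpL32 at day 10 had -1.082 in replicate 1, against -0.06 to -0.21 in the others. Replicates 1 and 3 of RpL32 were measured by a different clone from replicates 2 and 4. The median of day 10 replicate 1 was -0.85 over genes and unnamed features, and its part in both values was not tested. RpL15 at day 14 had 0.076 in replicate 1, against -0.21 to -0.23 in the others, and RpL27 at day 14 had -0.076 in replicate 1, against about -0.22 in each of the others. The median of day 14 replicate 1 was 0.28, the highest of the 8 arrays, and its part was not tested.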

How the results depend on the processing

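No member passed the threshold at day 10 in any setting but one: with the Cy5 arrays alone it was 2 (RpLP0-like and RpS10a at -1.573), where 441 of 10788 rows were called. At day 14 the exception was array weights, with 4 (eIF3b, RpL24-like, RpS28b and RpS7); there 758 of 6142 rows were called and the weights ran from 0.319 for day 14 replicate 2 to 5.07 for replicate 3. For the difference it was 0 in each setting run, and leaving out any array gave 0 to 0 for all 3 comparisons. Fitting rows tested on either day together, the version computed first and added after the data were seen, called 0 members and left 631, 35 and 58 rows at an unadjusted p under 0.05 at day 10, at day 14 and for the difference, against 597, 69 and 112. The replicate block, with same-numbered arrays correlating from 0.006 to 0.289, called 0 members, beside 32 of 6277 rows at day 10 and 1 of 5459 at day 14, against 0 without it, and each day alone gave no test of the difference.

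The ribosomal protein median minus that of all rows was 0.023 at day 10 and 0.206 at day 14 with the deposited signs, and -0.242 at day 14 on the Cy3 arrays alone; the factor median was 0.108 at day 14 with the deposited signs. With an array left out, the ribosomal median lay between -0.229 and -0.086 at day 10 and between -0.126 and -0.077 at day 14, and the factor median between -0.152 and 0.027 and between -0.062 and 0.007.

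Over all tested members, the sign of the mean changed for 8 of 44 at day 10 and 18 of 36 at day 14 with the deposited signs, for 12 of 44 and 4 of 36 with arrays centred, and for 17 of 44 and 6 of 36 with centring by position. The genes named by rule changed sign as follows, and the cause was not tested. With the deposited signs, day 10 means were 0.063 for RpL15, 0.418 for eIF4G2, -0.201 for eIF3d2 and 0.081 for RpLP0. Day 14 means were 0.277 for RpS7, 0.169 for RpS28b, 0.036 for RpL27, 0.141 for RpL3, 0.206 for eIF3b, 0.263 for eEF1alpha2, -0.345 for RpL24-like, -0.163 for RpL29, -0.011 for eIF4E5, -0.177 for eIF3a, 0.225 for Rack1 and -0.221 for eIF4A. Differences were 0.071 for eIF4E3, 0.497 for RpS28b and -0.015 for eIF3a. Centring by position gave 0.31 for eIF3b, 0.073 for eIF4A and 0.013 for S6k at day 10, and -0.108 for RpL28, -0.106 for RpL23 and -0.117 for RpLP0 at day 14. Centring arrays gave 0.101 for eIF4A at day 10, and -0.104, -0.116 and -0.143 for RpL28, RpL23 and RpLP0 at day 14. Array weights gave -0.084 for eIF3d2 at day 10, and -0.087, -0.037, -0.293 and 0.087 for RpL28, RpL23, RpLP0 and S6k at day 14. The Cy5 arrays alone gave -0.087 for eIF3d2 at day 10, then 0.063, -0.14, -0.059 and -0.086 for eEF1alpha2, RpL24-like, RpL29 and eIF4A at day 14, and 0.419 for the RpS28b difference. The Cy3 arrays alone gave -0.146, -0.115, -0.261 and 0.116 for RpL28, RpL23, RpLP0 and S6k at day 14 and 0.299 for the eIF3i difference. With an array left out, the differences ran from -0.355 to 0.006 for eIF3i and from -0.329 to 0.117 for RpS28b, and day 14 means from -0.082 to 0.338 for eIF4A and from -0.117 to 0.183 for S6k. Of 41 values of genes named by rule, 25 could be refitted with one of their arrays left out, and 20 of these moved by over 1.5 times. Besides those given with the genes, day 10 means lay between -0.499 and -0.157 for RpL32, -0.643 and -0.293 for eIF4G2, -0.682 and -0.326 for Rack1 and -0.484 and -0.111 for S6k. Day 14 means lay between -0.353 and -0.111 for eEF1alpha2, 0.078 and 0.288 for eIF2Balpha, 0.016 and 0.276 for RpL29, -0.345 and -0.074 for RpL3 and -0.507 and -0.204 for RpS28b, and the RpL23 difference between 0.343 and 0.808. Genes with values on 3 arrays of a day could not be fitted with one of them left out.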
